A study of Mus musculus with 9 samples.

Results

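The genes described here encode the proteins of the cytosolic ribosome, measured in RNA of mouse neutrophils. They were chosen by name: protein-coding genes of the GENCODE M21 annotation (build GRCm38) called Rpl or Rps with a number and at most the letters a, x, y or l, together with Rplp0, Rplp1, Rplp2 and Rpsa. The rule gave 81 genes of the 54532 Ensembl identifiers counted, 31 of the small (40S) and 50 of the large (60S) subunit, and used no measured value. Wild type C57/B6 mice gave the bone marrow neutrophils, which were held for 12 h in low serum, 0.5% FBS, in 3 groups of 3 libraries. In the first, they shared a culture in DMEM with PyMT-N cells and were then recovered by FACS, in the second they shared it with PyMT-M cells and were recovered likewise, and in the third they were kept alone. PyMT, polyoma middle T antigen, is the oncogene of a widely used mouse mammary carcinoma model, and N and M are not spelled out in the labels. The replicates are labelled biological, and the column names of the counts repeat the same numbers across the 3 groups. What those numbers stand for is not stated. The labels tie no replicate to an animal or culture, so p-values measure the spread between these libraries. Whether the neutrophils kept alone passed a sorter is not stated, so sorting and co-culture cannot be told apart in comparisons with them.

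A cytosolic ribosome joins a small subunit, which decodes the messenger RNA, to a large subunit, which forms the peptide bond and leads the new chain out through a tunnel. Each subunit carries its ribosomal proteins in about equal numbers of copies, and surplus free protein is degraded. The messenger RNAs of these proteins are the classic TOP class: they begin with a C followed by a run of pyrimidines, and growth signals through mTORC1 regulate their translation. Neutrophils leave the cell cycle as they mature, and mature neutrophils have few ribosomes compared with their marrow precursors.

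Libraries held 1641049 to 4524563 counts, the fewest in alone replicate 3, of which 28454 to 125323 fell in ribosomal protein genes. Neutrophil identity was checked first: all 13 mature neutrophil markers had counts in every group and summed to 22053 ± 2029 CPM (counts scaled to the library total; SD, n = 3) with PyMT-N cells, 19402 ± 2491 CPM with PyMT-M cells and 34552 ± 6451 CPM alone. Epithelial markers (22 genes) summed to 2442 to 3376 CPM in PyMT-N libraries, 121 to 193 CPM in PyMT-M libraries and 38.4 to 94.9 CPM alone, and Krt5 was at 0 in all groups, with Epcam at 0 alone. Mesenchymal markers (20 genes) summed to 1549 to 1987, 1473 to 1646 and 182 to 216 CPM in the same order of groups, with Postn at 0 in both co-cultures and Twist1 at 0 alone. Cell cycle genes (15 genes) averaged 1527, 2962 and 589 CPM. Immature granulocyte genes (11 genes) averaged 446, 4093 and 3806 CPM, with Mpo, Elane and Ctsg at 0 in PyMT-N libraries. The PyMT-M sum does not stand for most of this list. In the edgeR test used below, 0 of the 11 were higher and 7 lower with PyMT-M cells than alone (median log2 fold change -2.31). With PyMT-N cells 0 were higher and 11 lower. Of all tested genes, 27.9% and 23.6% were lower in these comparisons. B cell genes (11 genes) averaged 21.7, 118 and 735 CPM. Here too the PyMT-M sum does not stand for most of the list. Between the co-cultures 1 of 9 tested (11.1%) was lower with PyMT-N cells and 8 did not pass. The median log2 fold change of PyMT-N over PyMT-M was 1.49, and 15.5% of all tested genes were lower. Medians over alone were -4.93 with PyMT-N and -6.11 with PyMT-M cells. Eosinophil and basophil genes (9 genes) averaged 20.7, 11.1 and 323 CPM, with Epx at 0 in both co-cultures, dendritic cell genes (11 genes) 134, 121 and 558 CPM, erythroid genes 329.7, 272 and 34.7 CPM, with both Hba-a1 and Hba-a2 at 0 throughout, and 30 pan-leukocyte genes 18770 ± 1440, 14738 ± 2204 and 29598 ± 1064 CPM. The mitochondrial chromosome held 3.49%, 8.80% and 9.41% of counts, and 14.5% in alone replicate 3, which had 11814 genes with a count where the other libraries had 15094 to 17008. All of these moved with the groups, and their part in the results below was not tested.

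Ribosomal protein genes held a larger share of counts in the libraries from PyMT-M co-culture than in those of either other group. They held 3.13%, 2.90% and 3.21% of counts in the PyMT-M libraries, 1.63%, 2.06% and 1.89% in the PyMT-N libraries, and 1.33%, 1.32% and 1.73% in the libraries of neutrophils kept alone. Every PyMT-M library lay above every other library, whereas PyMT-N replicate 1 lay below alone replicate 3. Means were 1.86% ± 0.215 with PyMT-N cells, 3.08% ± 0.165 with PyMT-M cells and 1.46% ± 0.237 alone (SD, n = 3 each), and without alone replicate 3 the last was 1.32%. Wilson 95% intervals for single libraries lay between 1.31% and 3.23%, and cover counting error only. In bulk RNA, fewer cells of a type and less RNA per cell cannot be told apart, so a share says nothing of ribosomes per cell.

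**Figure D1:**
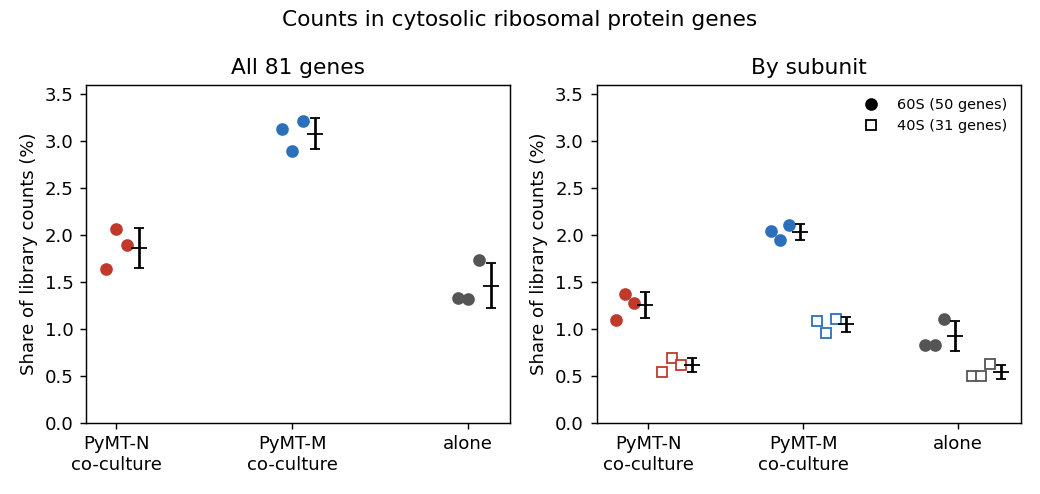
Share of library counts in ribosomal protein genes (y axis, percent) by group, for all 81 genes (left) and split into 60S (filled circles) and 40S genes (open squares, right). Each point is a library and the bars give mean and SD of 3. The PyMT-M libraries lie at 2.90% to 3.21%, above all others, while PyMT-N and alone libraries overlap.

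Both subunits took part, though not in equal proportion. The 40S genes held 0.613% ± 0.0770 of counts with PyMT-N cells, 1.05% ± 0.0836 with PyMT-M cells and 0.540% ± 0.0758 alone, and the 60S genes 1.25% ± 0.138, 2.03% ± 0.0828 and 0.920% ± 0.161. Of the counts in ribosomal protein genes, the 40S set had 32.9% ± 0.480 in PyMT-N libraries, 34.0% ± 0.991 in PyMT-M libraries and 37.1% ± 0.759 alone. Every alone library (36.2% to 37.6%) was above every co-culture library (32.5% to 34.7%), and the co-cultures overlapped. Counts on 294 annotated pseudogenes, those named after a ribosomal protein gene with the ending -ps, kept nearly the same ratio to the ribosomal protein genes. They had 3.11 ± 0.144, 3.29 ± 0.0703 and 3.32 ± 0.128 per 100 gene counts. Copies named otherwise were left out.

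A small number of genes dominated the pool. Rpl27, a protein of the 60S surface, and Rpl4, which lines the exit tunnel, together held 16.5% ± 1.35 of ribosomal protein counts in PyMT-N libraries, 17.96% ± 1.72 in PyMT-M libraries and 14.5% ± 0.292 alone. Between 13 and 14 genes made up 50% of the counts in each group. Scaled by the length of the principal messenger RNA, without trimmed-mean scaling, Rpl27 had the highest level, at 2528 ± 369 CPM per kilobase with PyMT-N cells, 4729 ± 727 with PyMT-M cells and 1619 ± 479 alone. Rpl36 came next (1678 ± 265, 2932 ± 625 and 693 ± 393 CPM per kilobase), followed by Rplp1 (1661 ± 366, 2096 ± 168 and 714 ± 389.7) and Rpl4 (980.3 ± 75.1, 1711 ± 203 and 738 ± 58.5). In PyMT-N libraries Rpl36 and Rplp1 did not differ beyond their spread.

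**Figure D2:**
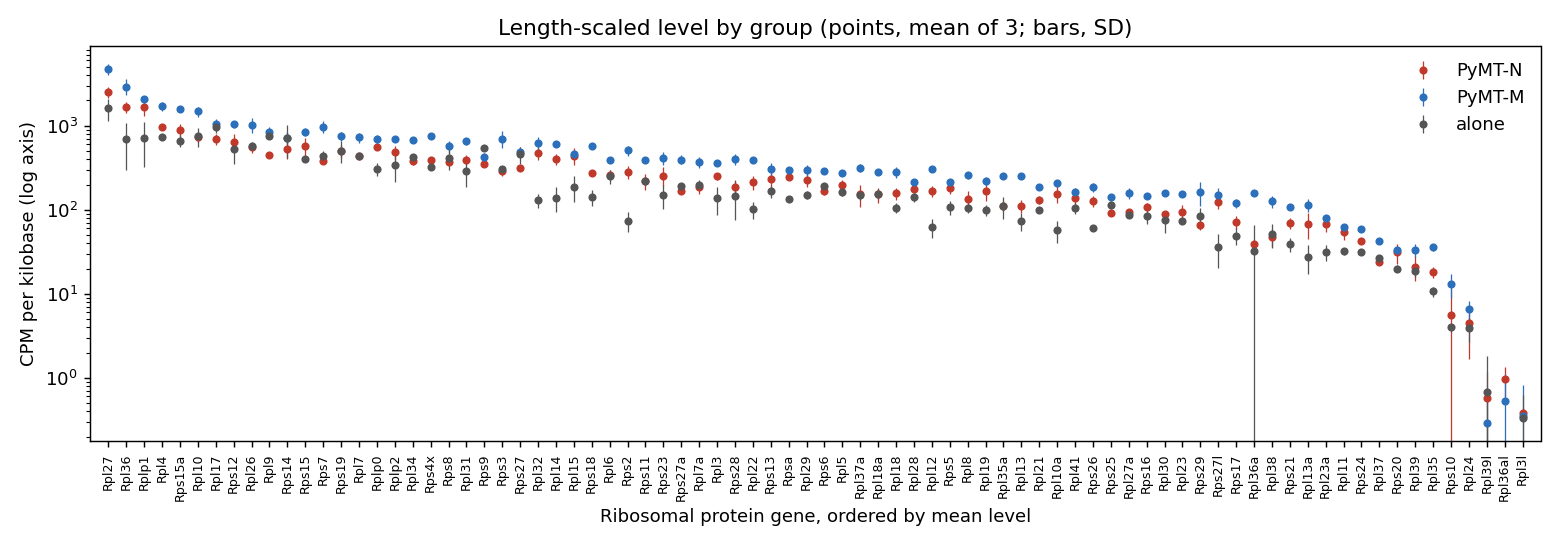
Mean CPM per kilobase of the principal messenger RNA (y axis, log scale) of 80 ribosomal protein genes with a count (x axis, ordered by mean level) in PyMT-N, PyMT-M and alone libraries; bars are SD of 3 and run off the axis where they reach 0. Levels run from Rpl27 at the left to the paralogues Rpl39l, Rpl36al and Rpl3l at the right.

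At the low end stood the paralogues. Rpl3l, a muscle counterpart of Rpl3, had 0 to 4 counts per library, Rpl39l and Rpl36al had 0 to 3, and Rpl10l, a testis counterpart of Rpl10, had 0 in all 9 libraries. A floor of 3 counts corresponds to 0.573 to 2.26 normalised CPM by library. These 4 genes did not pass the filter on low counts, which left 77 of 81 genes, 31 of the 40S and 46 of the 60S subunit, among 12012 tested. Rps10 and Rpl24, parts of every ribosome, also had very few counts, at 5.61 ± 5.93, 13.1 ± 4.24 and 3.97 ± 0.428 CPM per kilobase for Rps10 and 4.45 ± 2.78, 6.62 ± 1.58 and 3.88 ± 1.21 for Rpl24 in the PyMT-N, PyMT-M and alone groups. Of the 50-base words of their messenger RNAs, 92.4% and 81.7% also occur in another annotated gene, and each is overlapped on its own strand by another annotated gene that had 0 counts in every library. How reads on such genes were counted is not stated, so both levels are uncertain.

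The first test asked which ribosomal protein messenger RNAs differed in PyMT-M co-culture. Of the 77 genes, 42 were higher and 1 was lower with PyMT-M cells than alone (edgeR quasi-likelihood test, Benjamini-Hochberg adjusted p under 0.05 over all 12012 genes), where 28.2% of all genes were higher and 27.9% lower, 56.1% in all. The median log2 fold change of the 77 was 0.58, beside -0.03 over all tested genes, with medians of 0.54 for 40S and 0.60 for 60S genes. For 53 of the 77 every PyMT-M library was above every alone library, and for 3 every one was below, where this held for 31.4% and 26.5% of all genes. Without alone replicate 3 the counts were 50 higher and 2 lower, where 29% of all genes were higher and 30.7% lower. Scaled by library totals, 68 were higher and 0 lower, where 38.1% of all genes were higher and 15.9% lower.

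The small-subunit protein Rps2 (ENSMUSG00000044533, chr17:24718116-24721929), which with Rps3 and Rps9 surrounds the entry of the messenger RNA channel, rose most. Its normalised CPM, CPM after trimmed-mean scaling of the library total, was 238, 319 and 265 with PyMT-N cells, 429, 479 and 389.7 with PyMT-M cells and 82.4, 68.0 and 119.9 alone. All 3 groups were separate, PyMT-M being highest and alone lowest. The log2 fold change was 2.29 ± 0.22 (SE, adjusted p = 1.14e-06) for PyMT-M over alone and 1.63 ± 0.22 (SE, adjusted p = 1.70e-05) for PyMT-N over alone. Rps2 shares 79.0% of its 50-base words with 71 other annotated genes.

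Rpl36a (ENSMUSG00000079435, chrX:134585654-134588062), a 60S protein next to the exit site for spent transfer RNA, had the next largest change. It had a normalised CPM of 18.4, 19.6 and 18.1 in PyMT-N libraries, 67.1, 59.4 and 69.5 in PyMT-M libraries and 6.24, 9.34 and 42.2 alone. Every PyMT-M library was above all others, and alone replicate 3 was far above the other alone libraries. PyMT-M over alone was 2.00 ± 0.43 (SE, adjusted p = 0.00122) on the log2 scale, a call that no left-out library removed, and PyMT-N over alone was 0.20 ± 0.48 (SE, adjusted p = 0.759).

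Rpl12, which holds the stalk base together with Rplp0, had a normalised CPM of 176, 216 and 217 with PyMT-N cells, 307, 302 and 364 with PyMT-M cells and 65.1, 103 and 111 alone. The 60S surface proteins Rpl32 and Rpl14 followed: Rpl32 had 199, 253 and 266, 288, 304 and 229 and 73.5, 69.9 and 100.3, and Rpl14 had 346, 437 and 407, 522, 537 and 491 and 139.9, 132 and 242 in the same order of groups. For all 3 genes, alone libraries were below all co-culture libraries. Log2 fold changes of PyMT-M over alone were 1.81 ± 0.21 (SE, adjusted p = 6.98e-06) for Rpl12, 1.78 ± 0.21 (SE, adjusted p = 7.35e-06) for Rpl32 and 1.62 ± 0.22 (SE, adjusted p = 2.12e-05) for Rpl14.

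Rps9 (ENSMUSG00000006333, chr7:3703993-3706897), at the same channel entry as Rps2, was the 1 gene that fell with PyMT-M cells under trimmed-mean scaling. Its normalised CPM was 273, 242 and 255 with PyMT-N cells, 253, 257 and 312 with PyMT-M cells and 457, 509 and 523 alone, so that both co-cultures lay below the alone libraries and overlapped each other. PyMT-M over alone was -0.86 ± 0.16 (SE, adjusted p = 3.73e-04) and PyMT-N over alone -0.95 ± 0.16 (SE, adjusted p = 1.60e-04). No left-out library ended either call. By library totals the PyMT-M call was lost, and scaled to 30 pan-leukocyte genes the PyMT-M value turned to 0.68. The other 4 lowest genes in this comparison did not pass: Rps14 had -0.50 ± 0.27 (SE, adjusted p = 0.128), Rps27 -0.41 ± 0.20 (SE, adjusted p = 0.101), Rpl17 -0.40 ± 0.18 (SE, adjusted p = 0.0693) and Rpl9 -0.36 ± 0.16 (SE, adjusted p = 0.0735).

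**Figure D3:**
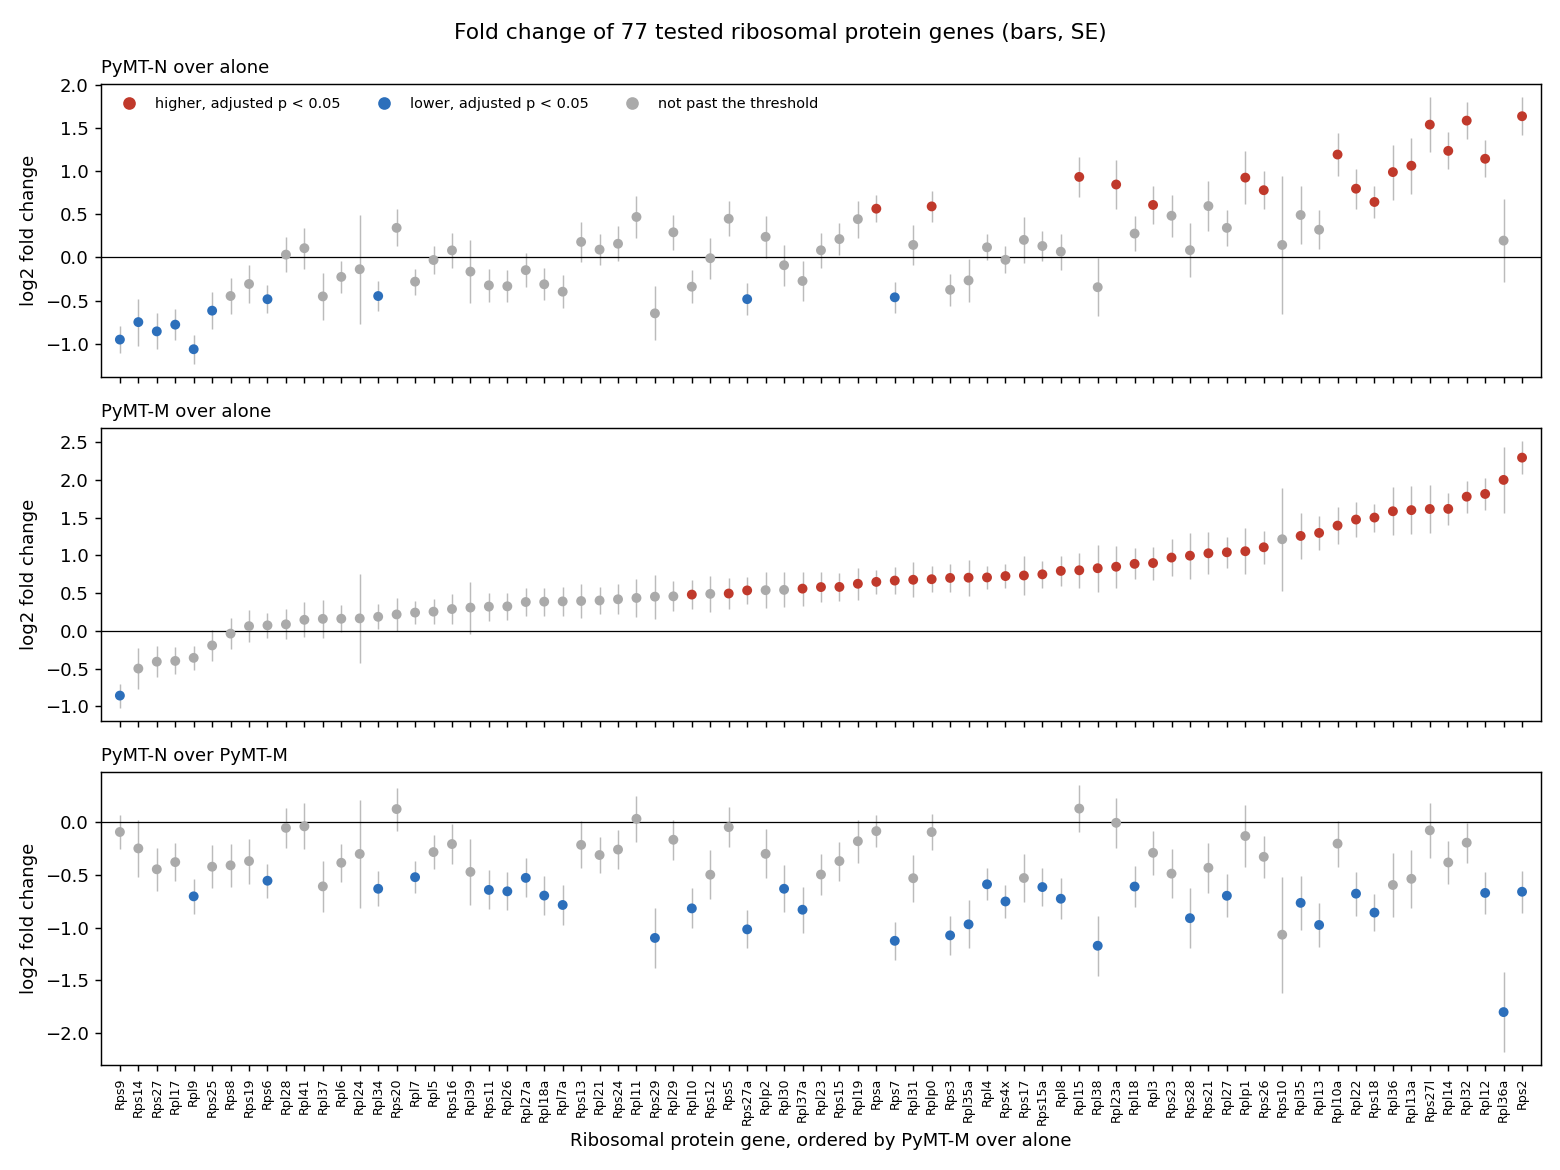
Log2 fold change (y axes) of the 77 tested ribosomal protein genes (x axis, ordered by PyMT-M over alone) in 3 comparisons; bars are SE, red marks higher and blue lower genes at adjusted p under 0.05. In PyMT-M over alone 42 are red and 1 blue, in PyMT-N over alone 17 are red and 10 blue, and in PyMT-N over PyMT-M 32 are blue; scaled to pan-leukocyte genes, no gene was lower than alone at that threshold in either co-culture.

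With PyMT-N cells the ribosomal protein genes went both ways, as all tested genes did. Of the 77 genes, 17 were higher and 10 lower than in neutrophils kept alone, where 29.4% of all tested genes were higher and 23.6% lower. Neither count stands above that background, and the 27 called either way compare with 53% of all genes. The median log2 fold change was 0.11, beside 0.12 over all tested genes, and the quartiles were -0.31 and 0.48. Over all tested genes the quartiles were wider apart, at -0.81 and 1.31. For 18 genes every PyMT-N library was above every alone library and for 15 every one was below, where this held for 33.4% and 23.3% of all genes. Of the 17 higher genes 12 belong to the 60S and 5 to the 40S subunit, and of the 10 lower genes 3 to the 60S and 7 to the 40S subunit. Without alone replicate 3 the counts were 25 higher and 7 lower, where 31.1% and 26% of all genes were. The balance of directions moved with scaling. With relative log expression factors 18 were higher and 6 lower, where 30.4% and 22.6% of all genes were. By library totals 30 were higher and 4 lower, where 35.9% and 17.6% were. Scaled to pan-leukocyte genes, 62 were higher and 0 lower, where 53.2% and 8.47% were.

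Rps2 and Rpl32 rose most with PyMT-N cells, Rpl32 by 1.58 ± 0.21 (SE, adjusted p = 1.69e-05) on the log2 scale over alone. Rps27l, described below, came next, before Rpl14 at 1.23 ± 0.21 (SE, adjusted p = 2.05e-04) and Rpl10a, the protein of the mobile L1 stalk, at 1.19 ± 0.25 (SE, adjusted p = 8.95e-04). Rpl10a had a normalised CPM of 97.6, 139.7 and 98.4 in PyMT-N libraries, 122, 133 and 130.4 in PyMT-M libraries and 44.6, 38.5 and 68.6 alone, so the co-cultures overlapped and both were above alone. Its PyMT-M over alone value was 1.39 ± 0.25 (SE, adjusted p = 2.38e-04).

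Rpl9, a 60S protein near the site where elongation factors bind, fell most under trimmed-mean scaling. It had a normalised CPM of 284, 313 and 303 with PyMT-N cells, 529.7, 390.0 and 548 with PyMT-M cells and 622, 634 and 625 alone. The 3 groups did not overlap, and alone libraries differed from each other by little. PyMT-N over alone was -1.06 ± 0.17 (SE, adjusted p = 7.52e-05); the call was lost under pan-leukocyte scaling, as were those of Rps9, Rps27 and Rpl17.

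Rps27, a zinc-binding 40S protein, had 114, 109.9 and 96.0 in PyMT-N libraries, 146, 121 and 169 in PyMT-M libraries and 215, 214 and 144 alone. Rpl17, which lines the exit tunnel with Rpl4, had 486, 603 and 492, 683, 567 and 807 and 820.3, 809 and 1085, and Rps14, the 40S platform protein whose human counterpart is lost in 5q- syndrome, had 247, 380.4 and 298, 416, 286 and 397 and 434, 343 and 789. PyMT-N libraries were below the alone libraries for Rps27 and Rpl17 and overlapped them for Rps14, where alone replicate 3 was the highest of all. Log2 fold changes of PyMT-N over alone were -0.85 ± 0.21 (SE, adjusted p = 0.00286) for Rps27, -0.78 ± 0.18 (SE, adjusted p = 0.00203) for Rpl17 and -0.75 ± 0.27 (SE, adjusted p = 0.031) for Rps14. The last was no longer called without alone replicate 3, without PyMT-N replicate 1 or without PyMT-N replicate 3, and scaled to pan-leukocyte genes Rps27, Rpl17 and Rps14 turned to 0.091, 0.19 and 0.24. Of their 50-base words Rps27, Rpl17, Rps14 and Rpl9 share 98.6%, 78.7%, 38.1% and 86.7% with other genes.

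Set directly against each other, the co-cultures differed in 1 direction. With PyMT-N cells 32 of 77 genes were lower and 0 higher than with PyMT-M cells, where 15.5% of all tested genes were lower and 19.1% higher. At an unadjusted p under 0.05 there were 39 genes, all lower, where 43.7% of all genes passed in either direction. DESeq2 and limma-voom called 0 higher as well, and 36 and 47 lower. Of all genes they called 17% and 24.3% higher, and 15.9% and 22.5% lower. The median log2 fold change was -0.50, beside -0.02 over all tested genes. For 48 genes every PyMT-N library was below every PyMT-M library, and for 0 every one was above, where this held for 25.5% and 27.3% of all genes. The count lower was 19 without PyMT-N replicate 1, 20 without PyMT-N replicate 3 and 45 without alone replicate 3. In the same fits 11.1%, 10.5% and 20.8% of all genes were lower.

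The 5 genes with the largest drop were Rpl36a, Rpl38, Rps7, Rps29 and Rps3. Rpl36a, given above, had -1.80 ± 0.38 (SE, adjusted p = 0.00156) on the log2 scale. Rpl38, a small 60S protein needed in mouse embryos for translation of certain Hox messages, had a normalised CPM of 12.6, 19.6 and 16.6 with PyMT-N cells, 36.3, 30.5 and 44.2 with PyMT-M cells and 18.7, 16.4 and 30.2 alone, a PyMT-N over PyMT-M value of -1.17 ± 0.29 (SE, adjusted p = 0.00477). The zinc-binding Rps29 of the 40S head had 22.1, 26.2 and 26.9, 46.7, 40.8 and 75.6 and 28.5, 42.6 and 49.0 in the same order of groups and -1.10 ± 0.28 (SE, adjusted p = 0.00709). Rps3, which adds to its place at the channel entry a known role in DNA repair, had 481, 542 and 610.2, 1437, 867 and 1137 and 651, 694 and 775, with -1.07 ± 0.18 (SE, adjusted p = 3.03e-04). Each of these genes was lower in all 3 PyMT-N libraries than in any PyMT-M library. No left-out library ended these calls.

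At the other end, the 5 genes with the highest PyMT-N over PyMT-M values were all far from the threshold, which does not show that they were equal. Rpl15, a 60S core protein, had 0.13 ± 0.22 (SE, adjusted p = 0.692), and Rps20 of the 40S head had 0.13 ± 0.20 (SE, adjusted p = 0.676). Rpl11, which with Rpl5 carries the 5S RNA and binds MDM2, had 0.033 ± 0.22 (SE, adjusted p = 0.924). Rpl23a, at the mouth of the exit tunnel, had -0.005 ± 0.24 (SE, adjusted p = 0.99), and the very short protein Rpl41 had -0.038 ± 0.22 (SE, adjusted p = 0.912). Their normalised CPM overlapped between the co-cultures, for Rpl15 at 273, 415 and 351 with PyMT-N and 324, 328 and 297 with PyMT-M cells. Rpl15 was called higher in each co-culture against alone, where it had 143, 148 and 262, at 0.93 ± 0.23 (SE, adjusted p = 0.00334) for PyMT-N and 0.80 ± 0.23 (SE, adjusted p = 0.00831) for PyMT-M.

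Because the co-culture comparisons share the alone libraries, they are set side by side only by gene and by the order of the group means. For 41 of 77 genes the order, from high to low, was PyMT-M, PyMT-N, alone, and for 26 it was PyMT-M, alone, PyMT-N. For 7 it was alone, PyMT-M, PyMT-N, and for 3 PyMT-N, PyMT-M, alone. For 5 genes, Rps3, Rps7, Rps27a, Rpl26 and Rpl7, every PyMT-N library was below and every PyMT-M library above the alone libraries, an order that 0.441% of all tested genes had, and their values are in the closing paragraphs.

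**Figure D4:**
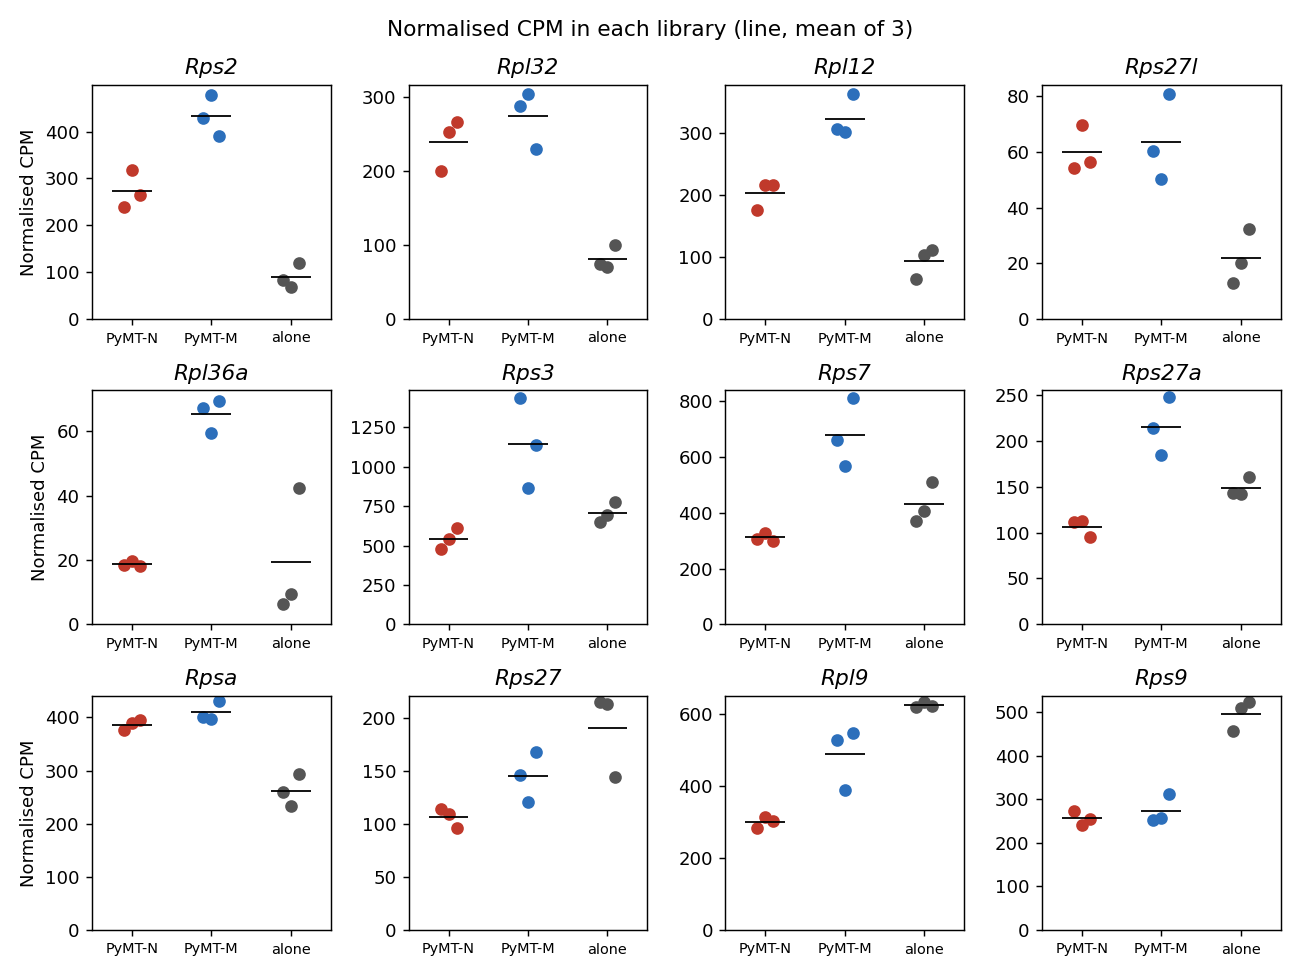
Normalised CPM (y axes) of 12 ribosomal protein genes in each library of PyMT-N, PyMT-M and alone groups; each point is a library and the line is the mean of 3. Rps2, Rpl32, Rpl12 and Rps27l are higher in both co-cultures, Rps3, Rps7 and Rps27a have alone libraries between the co-cultures, and Rps9 and Rpl9 are highest alone. Scaled to pan-leukocyte genes, Rps3, Rps7 and Rps27a turned to higher than alone with PyMT-N cells, and Rps9 and Rpl9 with PyMT-M cells.

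The acidic stalk of the large subunit recruits the translational GTPases and is built from Rplp0 with pairs of Rplp1 and Rplp2. Rplp0 had a normalised CPM of 706, 779.6 and 786 with PyMT-N cells, 865, 663 and 895 with PyMT-M cells and 438, 457 and 618 alone, Rplp1 had 650.1, 968 and 825, 962, 784 and 928 and 338, 250.3 and 714, and Rplp2 had 186, 242 and 178, 233, 235 and 277 and 153, 119 and 249.7. For Rplp0 both co-cultures were above alone and overlapped each other, while alone replicate 3 reached into the PyMT-N range for Rplp1 and lay above every PyMT-N library for Rplp2. Rplp0 rose by 0.59 ± 0.18 (SE, adjusted p = 0.0104) with PyMT-N and 0.68 ± 0.18 (SE, adjusted p = 0.00402) with PyMT-M cells. Rplp1 had 0.92 ± 0.30 (SE, adjusted p = 0.0204) and 1.05 ± 0.30 (SE, adjusted p = 0.00957), the first lost without alone replicate 1, alone replicate 2 or PyMT-N replicate 2. Rplp2 did not pass, with 0.24 ± 0.24 (SE, adjusted p = 0.424) and 0.54 ± 0.24 (SE, adjusted p = 0.0672). The stalk genes were not called between the co-cultures, where Rplp0 had -0.093 ± 0.17 (SE, adjusted p = 0.718).

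Rpsa, the 40S protein also known as the laminin receptor, was at 376, 389 and 395 with PyMT-N cells, 402, 397 and 431 with PyMT-M cells and 260.2, 234 and 293 alone. It was above alone in every co-culture library, by 0.56 ± 0.16 (SE, adjusted p = 0.00682) with PyMT-N and 0.65 ± 0.16 (SE, adjusted p = 0.00261) with PyMT-M cells, and kept both calls without any 1 library. Rps6, whose phosphorylation by S6 kinase is the usual readout of mTORC1, had 135, 159 and 144, 209, 210.1 and 225 and 201, 199.9 and 212. PyMT-N libraries were below both other groups, which overlapped. PyMT-N over alone was -0.48 ± 0.17 (SE, adjusted p = 0.0228), lost without PyMT-N replicate 1 or replicate 3 and by library totals, and turned to 0.48 by pan-leukocyte scaling, whereas PyMT-M over alone was 0.073 ± 0.16 (SE, adjusted p = 0.724). These are values of the messenger RNA and say nothing of phosphorylation.

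Among paralogue pairs, Rps27l and Rps27 were called in different directions for PyMT-N over alone under trimmed-mean scaling. For PyMT-M over alone Rps27 was not called, and pan-leukocyte scaling turned it positive in both comparisons. RPS27L is known in human cells as a target gene of p53, and its protein is a close counterpart of Rps27. Their coding sequences are both 252 bases long and agree at 192 positions (76.2%). The coding exons lie within chr9:66946086-66949516 (plus strand) for Rps27l and chr3:90212522-90213651 (minus strand) for Rps27 on GRCm38, and are shown because counts of similar genes can be confused; capitals mark the 60 positions at which the pair differs.
Rps27l: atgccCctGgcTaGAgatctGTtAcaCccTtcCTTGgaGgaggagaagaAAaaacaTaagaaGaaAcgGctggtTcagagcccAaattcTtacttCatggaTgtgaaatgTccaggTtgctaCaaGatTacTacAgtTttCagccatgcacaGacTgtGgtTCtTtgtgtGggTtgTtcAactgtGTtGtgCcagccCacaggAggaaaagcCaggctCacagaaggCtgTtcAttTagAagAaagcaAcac
Rps27: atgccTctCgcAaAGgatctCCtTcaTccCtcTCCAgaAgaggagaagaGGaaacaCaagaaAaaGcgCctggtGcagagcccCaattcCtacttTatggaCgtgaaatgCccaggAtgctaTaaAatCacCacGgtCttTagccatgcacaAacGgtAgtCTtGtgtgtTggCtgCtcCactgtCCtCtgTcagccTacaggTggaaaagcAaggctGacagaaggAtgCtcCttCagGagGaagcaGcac
The differing bases are spread along the whole coding sequence. Rps27l (ENSMUSG00000036781) shares 22.4% of the 50-base words of its messenger RNA with other genes, against 98.6% for Rps27.

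Rps27l had a normalised CPM of 54.2, 69.7 and 56.4 with PyMT-N cells, 60.2, 50.2 and 80.7 with PyMT-M cells and 12.9, 20.2 and 32.4 alone. Both co-cultures were above alone and overlapped each other. The log2 fold change was 1.54 ± 0.32 (SE, adjusted p = 9.13e-04) for PyMT-N and 1.61 ± 0.32 (SE, adjusted p = 5.78e-04) for PyMT-M over alone, and -0.076 ± 0.26 (SE, adjusted p = 0.848) between the co-cultures. Per kilobase Rps27l was below Rps27 in every group, at 122 ± 19.7 against 313 ± 23.9 CPM per kilobase with PyMT-N cells, 149 ± 32.7 against 494 ± 67.0 with PyMT-M cells and 36.0 ± 15.6 against 459 ± 105 alone. The other pairs could not be compared, since Rpl36al, Rpl39l, Rpl3l and Rpl10l were at or near 0. Their partners had PyMT-M over alone values of 2.00 for Rpl36a, 0.31 for Rpl39, 0.90 for Rpl3 and 0.48 for Rpl10 on the log2 scale, of which Rpl39 did not pass. Rps4x, the X-linked copy of Rps4, had 0.73 ± 0.16 (SE, adjusted p = 0.00121) for PyMT-M and -0.027 ± 0.16 (SE, adjusted p = 0.903) for PyMT-N over alone.

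Promoters of the ribosomal protein genes were read as a description only. RefSeq windows of GRCm38.p6, 250 bases before to 50 after the start, matched 61 of 81 genes. CCGGAAG, the core of the site bound by ETS factors, occurred on either strand in 39.3% of them and in 9.12% of all 27025 promoters. CTCTTTC occurred in 26.2% and 8.01%, TATAAA in 8.20% and 14.2%, and CACGTG, the E-box core, in 8.20% and 7.24%. A run of at least 8 pyrimidines within 30 bases of the start, which can overlap CTCTTTC, stood in 50.8% and 22.8%. The windows from 70 bases before to 30 after the start are shown for the 2 genes that rose most with PyMT-M cells (Rps2 and Rpl36a), for Rps27l and Rps7, and for the 2 that fell most with PyMT-N cells (Rps9 and Rpl9). They lie at chr17:24719993-24720092 (plus strand), chrX:134585584-134585683 (plus strand), chr9:66946016-66946115 (plus strand), chr12:28635924-28636023 (minus strand), chr7:3703971-3704070 (plus strand) and chr5:65391402-65391501 (minus strand) in that order, and capitals mark these motifs.
Rps2: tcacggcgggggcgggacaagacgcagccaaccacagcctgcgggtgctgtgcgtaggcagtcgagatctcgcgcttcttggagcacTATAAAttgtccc
Rpl36a: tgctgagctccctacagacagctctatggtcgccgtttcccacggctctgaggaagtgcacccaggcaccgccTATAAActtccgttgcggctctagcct
Rps27l: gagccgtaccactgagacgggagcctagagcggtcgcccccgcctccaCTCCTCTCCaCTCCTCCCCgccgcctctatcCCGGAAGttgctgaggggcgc
Rps7: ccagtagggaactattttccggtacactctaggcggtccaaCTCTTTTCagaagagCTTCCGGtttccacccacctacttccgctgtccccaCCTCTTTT
Rps9: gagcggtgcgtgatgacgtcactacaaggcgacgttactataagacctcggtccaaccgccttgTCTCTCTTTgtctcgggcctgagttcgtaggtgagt
Rpl9: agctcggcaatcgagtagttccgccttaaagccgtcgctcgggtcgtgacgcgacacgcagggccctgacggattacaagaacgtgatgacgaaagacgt
Rps2 and Rpl36a, which rose most with PyMT-M cells, both have TATAAA in the window, as does Rplp0, which had 0.68, and no other of the 61 genes, among them Rpl12 and Rpl14 with 1.81 and 1.62. In all 3 genes TATAAA lies after the annotated start. Windows of this length held it in 4.92% of the ribosomal protein genes and 5.51% of all promoters, so it is no more frequent here. A link with the rise was not tested. Rpl9 has none of the motifs. Pyrimidine runs stand in windows of genes that rose (Rps27l) and of 1 that fell (Rps9). A match describes these letters only.

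Genes that build ribosomes were mostly higher in both co-cultures. Of 89 biogenesis factors tested, 64 were higher and 1 lower with PyMT-N cells, with a median log2 fold change of 1.51, and 75 were higher and 1 lower with PyMT-M cells, with a median of 2.08. These are 71.9% and 84.3% higher, beside 29.4% and 28.2% of all tested genes, and 1.12% lower in both, beside 23.6% and 27.9%. Wdr36, an early processing factor, had a normalised CPM of 93.4 ± 9.29 with PyMT-N cells, 51.8 ± 2.45 with PyMT-M cells and 8.32 ± 2.10 alone (SD, n = 3), and PyMT-N over alone was 3.48 ± 0.29 (SE, adjusted p = 1.45e-07). Npm1, the nucleolar chaperone nucleophosmin and itself a TOP message, had 106 ± 6.11, 237 ± 25.6 and 31.02 ± 5.60, with 2.96 ± 0.22 (SE, adjusted p = 9.30e-08) for PyMT-M over alone. Nop53, a late 60S factor, was the lower gene in both, at 55.3 ± 7.87, 68.0 ± 14.0 and 160.0 ± 90.8. Between the co-cultures 35 biogenesis factors (39.3%) were lower and 1, Wdr36, was higher with PyMT-N cells, where 15.5% and 19.1% of all genes were; Ncl, nucleolin, had -1.33 ± 0.21 (SE, adjusted p = 1.47e-04). The difference between this list and the ribosomal proteins was not tested.

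Chaperones and importers of ribosomal proteins had 9 of 14 genes higher with PyMT-N and 10 of 14 with PyMT-M cells, with medians of 0.91 and 1.54, or 64.3% and 71.4% beside the 29.4% and 28.2% of all genes. Ipo5, an importin that carries ribosomal proteins into the nucleus, had 295 ± 40.5 with PyMT-N cells, 357 ± 17.6 with PyMT-M cells and 42.8 ± 16.1 alone. Heatr3, which helps import Rpl5, had 13.2 ± 4.02, 66.5 ± 12.2 and 3.95 ± 2.37, and PyMT-N over PyMT-M was -2.33 ± 0.29 (SE, adjusted p = 1.61e-05). RNA polymerase I and its factors, which make ribosomal RNA, had 5 genes higher and 2 lower of 14 with PyMT-N cells (median 0.37) and 7 higher of 14 with PyMT-M cells (median 1.00). The PyMT-N shares, 35.7% higher and 14.3% lower, lie near the 29.4% and 23.6% of all genes, and for PyMT-M 28.2% of all genes were higher. The subunit gene Polr1e had 21.0 ± 3.42, 35.3 ± 5.64 and 2.045 ± 1.497, and Polr1a, the largest subunit, was lower with PyMT-N cells than alone at -1.55 ± 0.37 (SE, adjusted p = 0.00255), with a large spread alone (84.1 ± 49.9).

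Initiation factors were higher for 15 and lower for 5 of 39 with PyMT-N cells (median 0.43), and higher for 22 and lower for 6 with PyMT-M cells (median 0.81). The shares higher, 38.5% and 56.4%, stand beside 29.4% and 28.2% of all genes, and the shares lower, 12.8% and 15.4%, beside 23.6% and 27.9%. Eif2s1, the alpha subunit of eIF2, had 105 ± 15.1 with PyMT-N cells, 146 ± 26.4 with PyMT-M cells and 17.0 ± 5.75 alone, while Eif3f fell with PyMT-N cells, at -1.21 ± 0.19 (SE, adjusted p = 6.63e-05). Elongation and termination factors were higher for 10 and lower for 3 of 17 with PyMT-N cells (median 0.76), and for 10 and 1 with PyMT-M cells (median 1.22), 58.8% higher in both. Abce1, which splits spent ribosomes, had 151 ± 20.9, 227 ± 32.2 and 32.5 ± 11.1. Gfm1, also on that list, serves the mitochondrial ribosome, and had 63.1 ± 11.4, 127 ± 11.2 and 13.6 ± 6.83. Eef2, the translocase and a TOP message, went the other way at 986 ± 34.6, 1146 ± 2.26 and 1694 ± 176, with -0.78 ± 0.14 (SE, adjusted p = 2.36e-04) and -0.56 ± 0.14 (SE, adjusted p = 0.00286) for PyMT-N and PyMT-M over alone.

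Of 18 TOP messages that do not encode ribosomal proteins, 5 were higher and 5 lower with PyMT-N cells (median 0.03), 27.8% each way and near the 29.4% and 23.6% of all genes. With PyMT-M cells 11 were higher and 3 lower (median 0.71), 61.1% and 16.7% beside 28.2% and 27.9%. Between the co-cultures 15.5% of all genes were lower and 19.1% higher with PyMT-N cells. Of the 18 TOP messages, 11 (61.1%) were lower and 1 (5.56%) higher. Vim, vimentin, had the smallest p of these, at -2.46 ± 0.15 (SE, adjusted p = 1.08e-08), and is also a mesenchymal gene. Tpt1, translationally controlled tumour protein, was the higher one at 0.58 ± 0.15 (SE, adjusted p = 0.00777). Regulators of TOP translation and mTORC1 had 7 higher and 5 lower of 21 with PyMT-N cells (median -0.03) and 5 higher and 7 lower with PyMT-M cells (median -0.16), shares of 23.8% to 33.3% that lie near those of all genes. Eif4ebp2, a repressor of eIF4E, was lower in both at 128 ± 8.26, 179 ± 2.51 and 387 ± 45.5, and Deptor, an inhibitor of mTOR, was higher with PyMT-N cells at 17.9 ± 5.18, 2.23 ± 0.847 and 2.96 ± 0.924.

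**Figure D5:**
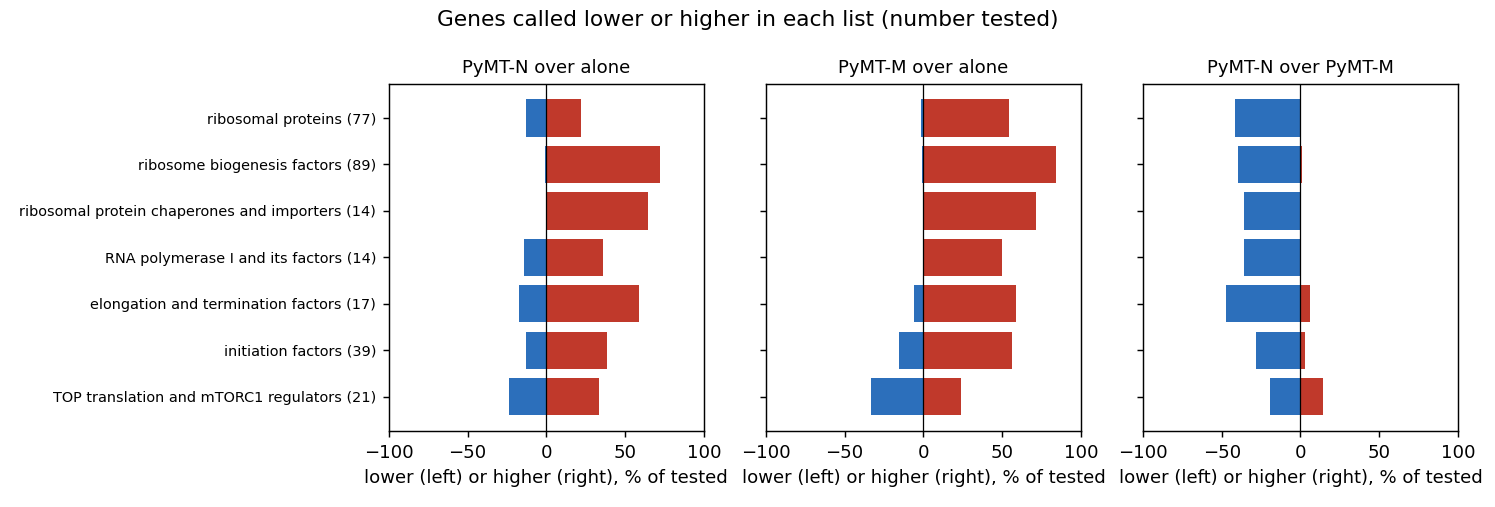
Share of the tested genes of 7 lists (rows, number tested in brackets) called higher (right, red) or lower (left, blue) at adjusted p under 0.05 in 3 comparisons; the x axes are percent of tested genes. Of 89 biogenesis factors 64 are higher with PyMT-N and 75 with PyMT-M cells, while of 77 ribosomal proteins 17 and 42 are.

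Genes of ribosomal proteins, and of like name, that fall outside the rule were checked as well. Rps3a1, the main Rps3a copy in mice, had 931 ± 132 normalised CPM with PyMT-N cells, 2082 ± 384 with PyMT-M cells and 1236 ± 94.9 alone, with 0.75 ± 0.17 (SE, adjusted p = 0.00138) for PyMT-M over alone and -1.16 ± 0.17 (SE, adjusted p = 6.43e-05) for PyMT-N over PyMT-M. Fau, which encodes Rps30 fused to a ubiquitin-like protein, had 289 ± 41.5, 328 ± 28.2 and 414 ± 80.0, and fell with PyMT-N cells, at -0.52 ± 0.18 (SE, adjusted p = 0.0278). Rack1, the 40S signalling scaffold, did not pass in any comparison, at 347 ± 2.01, 479 ± 52.4 and 424 ± 105. Of the 9 tested, 2 (22.2%) were lower with PyMT-N and 2 (22.2%) higher with PyMT-M cells than alone. These shares are not above the 23.6% and 28.2% of all tested genes. With PyMT-N against PyMT-M cells 3 of the 9 (33.3%) were lower, where 15.5% of all genes were. The others were Rpl7l1, Rpl22l1, Rps27rt, Rps3a2, Rps3a3 and Rps19bp1, which encodes a binding partner of Rps19 and no ribosomal protein, with means between 2.84 and 225.

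Within groups the ribosomal protein genes varied less than other genes. Their median coefficient of variation over 3 libraries was 13.4% with PyMT-N cells, 11.4% with PyMT-M cells and 18.2% alone, against 19.7%, 19.3% and 40.9% for the other tested genes, which have lower counts on the whole. Near-identical copies limit what each value means: 78 of the 81 genes share at least 1 of their 50-base words with another annotated gene, 47 share at least 50% of them, 59 have named pseudogenes and 46 are overlapped by another gene. Across the 77 tested genes, which are not independent replicates, log2 fold changes were set beside the shared percentage. PyMT-M over alone had a Pearson's r of 0.049 and a Spearman's rho of 0.057. PyMT-N over alone had -0.047 and -0.010, and PyMT-N over PyMT-M had -0.165 and -0.137. The log2 level per kilobase of 80 genes had 0.287 and 0.244 with it.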

How the data were processed

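The authors deposited whole-number counts of reads for each Ensembl gene, without normalisation, from reads aligned with STAR to GRCm38 (mm10), per the submitters' processing notes. Per the labels' protocols, the QIAseq FX Single Cell RNA kit made libraries from 150 pg of column-purified RNA. How reads were counted, with which annotation and strand setting, is not given in the sources, which leaves genes with near-identical copies or overlapping neighbours uncertain.

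GENCODE M21 named 54495 of 54532 identifiers. After filterByExpr (minimum count 10, minimum total 15) and trimmed-mean (TMM) scaling, all 9 libraries entered one edgeR 4.0.16 quasi-likelihood fit (R 4.3.3, robust moderation). Genes were called at a Benjamini-Hochberg adjusted p under 0.05 over 12012 genes. SE is |log2 fold change|/√F. Shares and lists got no test of their own. The fit was tested on simulated data. Alternatives were other size factors, other filters, DESeq2 1.42.0, limma-voom (limma 3.58.1), a replicate block and left-out libraries. The value of 1 marker gene is not reported here.

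Genes were named by a rule: the 5 highest and 5 lowest fold changes per comparison at a mean log2 CPM of at least 4, fixed members (Rplp0, Rplp1, Rplp2, Rpsa, Rps27a, Rps6), paralogue pairs and the 3 highest and 3 lowest levels. From each pathway list it took up to 3 called genes going with the majority and 1 going against it, a selection of which is given. Rpl4, Rps10, Rpl24, Rpl26, Rpl7 and the comparisons of other genes were added after their values were seen. Members and lists were chosen with earlier results of these data known. Promoters are RefSeq sequences, coding sequences those of GENCODE principal transcripts.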

Additional observations from a re-analysis of the deposited data

Results flagged for a closer look

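Rps3, Rps7, Rps27a, Rpl26 and Rpl7 stood out because every PyMT-N library was below, and every PyMT-M library above, every library of neutrophils kept alone. Among all tested genes 0.441% had this order. The choice used the values of these same libraries. The order itself places PyMT-N below alone, PyMT-M above alone and PyMT-N below PyMT-M without overlap. The tests of these differences, and the alternatives tried, are therefore not independent of the choice and add no separate evidence for the direction. Rps7, a 40S protein that in human cells also binds MDM2, had a normalised CPM of 308, 326 and 301 with PyMT-N cells, 660.4, 567 and 813 with PyMT-M cells and 371, 407 and 512 alone. The difference between the co-cultures, tested directly by edgeR, was -1.13 ± 0.18 (SE, adjusted p = 1.47e-04) on the log2 scale for PyMT-N over PyMT-M. Rps27a, which encodes ubiquitin fused to a 40S protein, had 111, 113 and 94.7, 214, 185 and 247 and 143, 142 and 161 in the same order of groups, and a difference of -1.02 ± 0.18 (SE, adjusted p = 4.10e-04). Rps3, whose values are in the report, had a difference of -1.07. The differences of these 3 genes were called under each alternative tried. Rpl26, a 60S protein at the exit of the tunnel, had 251, 304 and 317, 424, 381 and 573 and 369, 352 and 379 and a difference of -0.66 ± 0.18 (SE, adjusted p = 0.01), lost without PyMT-N replicate 1 or PyMT-M replicate 3. The 60S protein Rpl7 had 466, 524 and 517, 824, 699 and 639 and 602, 611 and 616 and a difference of -0.52 ± 0.15 (SE, adjusted p = 0.0135), lost without PyMT-N replicate 1 or PyMT-M replicate 1.

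The steps away from the alone libraries were less firm. PyMT-N over alone was -0.46 ± 0.18 (SE, adjusted p = 0.041) for Rps7 and -0.48 ± 0.19 (SE, adjusted p = 0.0407) for Rps27a, calls lost under 12 and 14 of 21 alternatives, with 6 and 7 of the 9 left-out libraries among them. PyMT-M over alone was 0.67 ± 0.18 (SE, adjusted p = 0.00522) for Rps7, kept without any 1 library, and 0.54 ± 0.18 (SE, adjusted p = 0.0211) for Rps27a, lost without PyMT-M replicate 3, alone replicate 1 or alone replicate 2. Rps3 was called for PyMT-M over alone at 0.70 ± 0.18 (SE, adjusted p = 0.00477) and not for PyMT-N over alone at -0.37 ± 0.18 (SE, adjusted p = 0.101). Rpl26 and Rpl7 were not called against the alone libraries, with -0.33 and -0.28 for PyMT-N and 0.32 and 0.24 for PyMT-M. Scaled to pan-leukocyte genes, PyMT-N over alone turned positive for all 5 genes. Of the 50-base words of Rps7 and Rps27a, 70.3% and 71.9% occur in other annotated genes.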

How the results depend on the processing

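For 35 genes named in the text, 2012 results under single alternatives kept their side of the threshold, of which 43 changed sign without passing in either fit, 100 fell short of it, 77 newly passed and 16 changed sign with a call in at least 1 of the fits. These 16, and all 31 such among the 77 tested genes, were under scaling to 30 pan-leukocyte genes, whose summed CPM was lower in both co-cultures than alone. For PyMT-N over alone the log2 values then were 0.63 for Rpl10, 0.19 for Rpl17, 0.63 for Rpl26, 0.68 for Rpl7, 0.24 for Rps14, 0.091 for Rps27, 0.47 for Rps27a, 0.59 for Rps3, 0.94 for Rps4x, 0.48 for Rps6 and 0.50 for Rps7. For PyMT-M over alone they were 1.15 for Rpl17, 1.17 for Rpl9, 1.04 for Rps14, 1.12 for Rps27 and 0.68 for Rps9.

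Counts called moved with scaling. In PyMT-N over alone, 62 were called, all higher, with pan-leukocyte scaling, where 53.2% of all genes were higher. In PyMT-M over alone, 68 were called by library totals and 77 by pan-leukocyte scaling, all higher, where 38.1% and 64.4% of all genes were. In PyMT-N over PyMT-M, 52 and 69 were called, all lower, where 22.5% and 36.1% of all genes were. With library totals, medians of the log2 fold change over all tested genes were 0.41, 0.44 and -0.23 and over the ribosomal protein genes 0.40, 1.08 and -0.70, in the order PyMT-N over alone, PyMT-M over alone and PyMT-N over PyMT-M. Pan-leukocyte scaling moved them to 1.07, 1.44 and -0.58 for all genes and 1.06, 2.10 and -1.07 for the ribosomal protein genes. At adjusted p under 0.01, 15 were called in PyMT-N over alone, 11 higher and 4 lower, where 22.4% and 17.4% of all genes were. In PyMT-N over PyMT-M 18 were called at that threshold, all lower, where 9.09% of all genes were lower and 14.1% higher. Leaving out 1 library gave 19 to 32 calls in PyMT-N over alone, 33 to 52 in PyMT-M over alone and 19 to 45 in PyMT-N over PyMT-M. Of these, 15, 30 and 15 genes were called each time. The share of all genes called each time was not worked out, so these counts cannot be set against a background. In the single fits 25.1% to 31.1%, 23.7% to 29% and 15.4% to 23.9% of all genes were higher. Those lower were 19.4% to 26%, 23.2% to 30.7% and 10.5% to 20.8%.

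Shares of counts rose without the 20 highest genes in the total, to 2.23% with PyMT-N cells, 3.85% with PyMT-M cells and 1.91% alone. The PyMT-M share was 3.38% without genes of the mitochondrial chromosome and 3.45% with the genes of like name outside the rule. Left-out libraries gave 1.76% to 1.98%, 3.01% to 3.17% and 1.32% to 1.53%. The cause of these shifts was not tested. No pairing by replicate number was seen: correlations of same-numbered deviations lay between -0.078 and 0.029, and 1 of 9 libraries was closest to its own number. This cannot show whether same-numbered libraries, whose column names share a number, came from 1 animal or batch. With the replicate block, 25 genes were called in PyMT-N over alone, 41 in PyMT-M over alone and 29 in PyMT-N over PyMT-M. Of all genes, 28.4%, 27.3% and 18.5% were then higher and 22.4%, 27% and 14.5% lower. Counts limit Rps10, Rpl24 and the 4 untested paralogues.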
